A study of Mus musculus with 6 samples.

Results

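The eukaryotic translation initiation factors are the proteins that bring a ribosome to the start codon of an mRNA. The genes described here were all genes of the deposited expression table whose symbol begins with Eif and a digit from 1 to 6. Eif2ak2, Eif2ak3, Eif2s3x and Eif2s3y were set aside from the 68 matching symbols, which left 64 of the 55487 genes in the table. Of these 64 genes, 58 had a read in at least 1 library, 6 were listed at 0 in all libraries, and 49 were expressed highly enough to be tested.

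RNA sequencing compared mouse bone marrow-derived dendritic cells (BMDC, cells grown out of marrow in culture) labelled as given NanoCa with cells labelled Mock. NanoCa is the lipid nanoparticle with a calcium crystal structure named in the series title, which sets the work in interferon beta immunotherapy. Both groups carry the same labels for female mice 4 to 8 weeks old, and no strain, allele, growth factor or time of exposure is given there. The treatment label of the Mock samples gives no treatment, but a protocol with NanoCa at 100 μM stands on the samples of both groups, and whether Mock cells received particles could not be settled from them. The labels give 3 samples per group and 1 shared batch. The replicate 3 column of each group was a constant multiple of the mean of replicates 1 and 2 (1.0011 times in NanoCa, 1.001876 times in Mock), so the comparison rests on 2 libraries per group. The labels do not say whether the replicates came from separate animals or cultures, so the p-values reflect how these libraries vary, and that variation may be technical.

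Library totals were between 22793565 and 31131990 reads, and 48 of the 49 tested initiation factor genes had at least 100 reads in each library. The labelled cell type was checked against 9 dendritic cell markers. Itgax, Cd74 and H2-Ab1 were present in every library (Itgax at 72.7 to 119 FPKM), whereas Flt3 and Zbtb46, which mark conventional dendritic cells, stayed below 1 FPKM in all of them. Of the 6 tested dendritic cell markers, 5 were lower in NanoCa, Itgax, Cd74 and H2-Ab1 among them (log2 fold changes -0.68, -0.64 and -0.55), and Ccr7 was higher. The summed level of the 9 was 1222 to 1298 FPKM against 1916 to 1936. FPKM is the number of reads scaled to the length of the gene and to the total reads of the library. Markers of other cells also differed between the groups. All 5 cell cycle genes were lower in NanoCa (summed level 23.9 to 24.2 FPKM against 218 to 229), as were all 5 tested neutrophil markers of 8 (50.7 to 62.8 against 227 to 415) and 3 of 4 tested mast cell and basophil markers (3.52 to 3.71 against 12.3 to 19.3). All 3 stromal markers (32.4 to 33.9 against 6.45 to 6.65) and 5 of 7 macrophage markers were higher in NanoCa. The other 2 macrophage markers fell, Lyz2 among them, and the summed macrophage level was 7147 to 7359.7 FPKM against 24767 to 25054. Lyz2 alone was at 4876 to 5014 FPKM against 23543 to 23808, so that sum mostly follows Lyz2 and hides the 5 markers that rose. T cell, B cell and erythroid markers were each below 0.1 FPKM in every library. The X-linked Xist was at 33.3 to 33.5 FPKM in NanoCa and at 0.00179 to 0.00207 in Mock, where each library had 1 read of it. The 3 Y-linked genes had reads in every library and were lower in NanoCa (Ddx3y 12.9 to 14.2 against 32.5 to 34.5). The labels give female mice for both groups. Y-linked reads in every library, and the near absence of Xist in Mock, are at odds with that label. The sex-linked genes thus set the groups apart, so effects of treatment and of the sex or origin of the donors cannot be told apart for any gene. The part of these differences in the results below was not tested. In bulk RNA, a change in the share of cells of a type and a change in RNA per cell cannot be told apart.

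In initiation, eIF2 carries the initiator methionine tRNA with GTP to the small ribosomal subunit, where eIF1, eIF1A, eIF3 and eIF5 hold the complex ready to scan. The complex eIF4F, made of the cap-binding protein eIF4E, the scaffold eIF4G and the RNA helicase eIF4A, recruits it to the capped end of the mRNA. Cells adjust the rate at these steps: the eIF4E-binding proteins keep eIF4E away from eIF4G, and stress-activated kinases phosphorylate eIF2 so that its exchange factor eIF2B cannot recharge it. In dendritic cells and macrophages, both controls are known to shape which proteins are made during activation.

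Across the 49 tested genes, 11 were higher in NanoCa (22.4%), 18 were lower (36.7%) and 20 did not pass the test. The two-sided test was limma on log2(FPKM + 1), and its p-values were adjusted by Benjamini and Hochberg's method across the 11116 genes of the fit, with calls at 0.05. The same test called 21.7% of all tested genes higher, 49.7% lower and 71.3% either way. On the values as deposited, the share of initiation factors that rose was near that of all genes. The share that fell was below that of all genes. Neither reading held under every scaling, as given below. The groups did not overlap for 45 of the 49 genes (91.8%), against 86.3% of all tested genes. With 2 libraries per group, an exact two-sided permutation test of a single gene cannot give a p below 0.333, so no such test could pass the threshold.

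Fold changes are given as NanoCa minus Mock after adding 1 to the FPKM and taking log2, a scale that makes changes of low genes look smaller. They ran from -1.12 to 1.11 with a median of -0.05. The median of all tested genes was -0.17, so the median initiation factor lay 0.12 above it. Scaling the libraries by the median of ratios moved the median of all genes by 0.17, and quantile normalization moved it by 0.13. Under the first of these, 25 of the 49 initiation factors were higher and 14 lower (33.4% and 32.6% of all genes). The share that rose was then above that of all genes. Under the second, 13 were higher and 18 lower (29.7% and 36.3% of all genes), and the share that fell was then near that of all genes. No gene past the test changed sign under either scaling. Only 2 of the 49 genes, Eif4e and Eif4ebp2, were called and changed at least 2-fold on this scale (10.8% of all tested genes did). The plot of log2 fold changes by complex shows all 49.

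**Figure D1:**
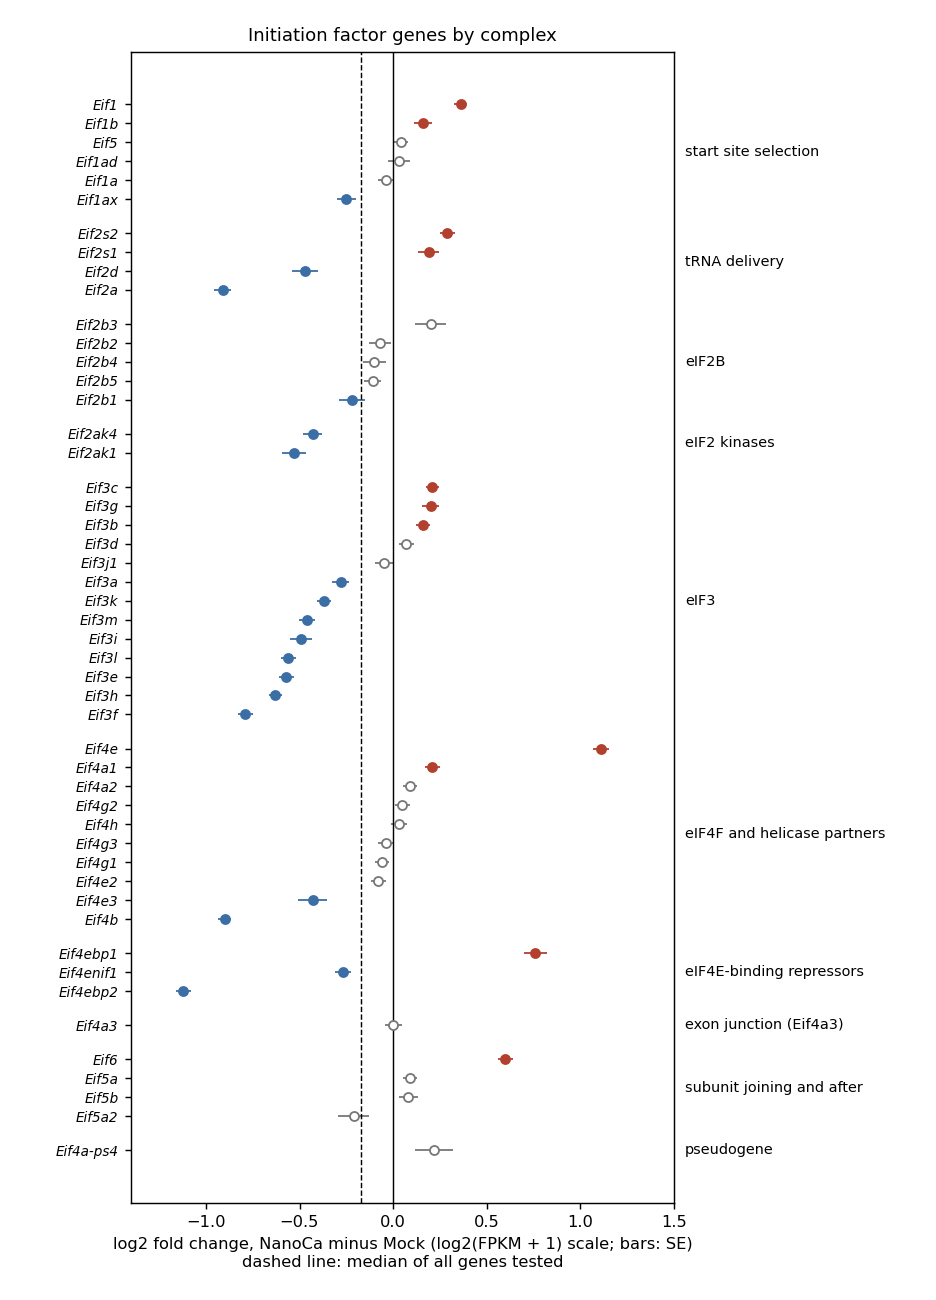
Log2 fold change (NanoCa minus Mock, log2(FPKM + 1) scale) of the 49 tested initiation factor genes by complex, 2 libraries per group, with bars for the standard error. Filled points passed the limma test (red higher, blue lower), open points did not, and the dashed line is the median of all tested genes, at -0.17. Eif4e at 1.11 and Eif4ebp2 at -1.12 lie at the ends, and most eIF3 genes lie left of the dashed line.

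Levels of the 49 genes in Mock spanned from 414 FPKM for Eif4a1, the main eIF4A helicase, to 1.48 FPKM for Eif5a2, a rarely expressed relative of Eif5a. Behind Eif4a1 came Eif1a at 193 FPKM, Eif1 at 186 and Eif5a at 176, whose library values did not overlap but lay within a narrow range. This order rests on the transcript length used for each gene. For Eif1a the recovered length was 726 bases, while its longest annotated transcript has 2865 bases. Sums over genes and ratios between genes rest on these lengths too. In all, 11 of the tested genes were above 100 FPKM in Mock and 6 were below 10. The summed level of all 64 genes was 2875 and 2826 FPKM in the NanoCa libraries and 2978 and 2966 in the Mock libraries. That sum was thus 0.959 times the Mock mean in NanoCa (means of 2851 and 2972), while single genes moved both ways within it.

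The cap-binding complex held the largest rise. Of its 11 genes, 10 were tested, of which 2 rose and 2 fell. Under median-of-ratios scaling 7 were higher and 2 lower, and under quantile normalization 2 were higher and 3 lower. Eif4e (ENSMUSG00000028156), which encodes the protein that binds the mRNA cap and is often limiting for initiation, was at 27.4 and 26.7 FPKM in the NanoCa libraries and at 11.9 and 12.0 in the Mock libraries. Both NanoCa libraries lay above both Mock libraries, at 226% of the Mock mean (27.1 ± 0.486 against 12.0 ± 0.0298, SD, n = 2 per group). The log2 fold change was 1.11 (SE 0.04, limma adjusted p = 4.72e-06), or 1.29 above the median of all genes, and it was past the test in all 12 alternative settings, at most at 1.30. The related cap-binding genes did not rise with it. Eif4e3 was at 10.4 and 8.84 FPKM in NanoCa and at 12.9 and 13.5 in Mock, and it fell by 0.43 on the log2 scale (SE 0.08, limma adjusted p = 0.00290). Eif4e2, whose protein binds caps in repressor complexes, was at 23.0 and 22.8 FPKM against 24.6 and 24.1, with a log2 fold change of -0.08 that did not pass the test and was 0.10 under median-of-ratios scaling. The part of the summed level of Eif4e, Eif4e2 and Eif4e3 that was Eif4e was 45.1% and 45.8% in NanoCa and 24.1% and 24.2% in Mock. Eif4e1b, an oocyte form in mice, was listed at 0 in all 4 libraries.

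The sequence before a start site of Eif4e is shown because the E-box CACGTG, bound by Myc and related factors, is a known control element of this gene in mammals. Of the 2 annotated start sites of Eif4e with a window, only the second had a match. The stretch below lies upstream of that second start site (RefSeq, GRCm38.p6, chr3:138527020-138527229, plus strand), with the matches to CACGTG in capitals at 228 and 64 bases before it.
Eif4e: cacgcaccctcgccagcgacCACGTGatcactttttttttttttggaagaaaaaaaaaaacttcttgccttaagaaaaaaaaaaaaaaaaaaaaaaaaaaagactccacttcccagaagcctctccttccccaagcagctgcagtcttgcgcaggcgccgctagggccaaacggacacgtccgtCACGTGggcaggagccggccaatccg
Windows of 300 bases (250 before and 50 after a start site) were at hand for 41 of the 64 genes, 39 of them tested. CACGTG reads the same on both strands, and it was found in 10 of those 41 genes (24.4%) and in 8.09% of all 27025 genes with a window. It was found in 3 of 9 genes that rose (Eif1b, Eif4a1 and Eif4e), 3 of 14 that fell (Eif3a, Eif3f and Eif3k) and 4 of 16 that did not pass the test (Eif4g1, Eif4h, Eif5a and Eif5a2). The 27025 genes were not limited to expressed genes, and no share matched for expression or base composition was computed. The difference from that share was not tested. A match describes these letters and is not a binding site, and the windows are of an earlier genome build than the expression values. The motif TGATGNAAN, one form of the element bound by Atf4 and Ddit3 with C/EBP partners, was searched on both strands and was not found in any of the 41 genes (4.5% of all genes), which says only that these letters were not in these windows.

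The scaffold and helicase genes of the complex moved little, with 1 exception among the helicase partners. Eif4b (ENSMUSG00000058655), which encodes the RNA-binding cofactor that stimulates eIF4A, was at 64.0 and 65.0 FPKM in NanoCa and at 120.3 and 123 in Mock. Both NanoCa libraries lay below both Mock libraries, at 53.1% of the Mock mean (64.5 ± 0.665 against 122 ± 1.66, SD, n = 2 per group). Eif4b fell by 0.90 on the log2 scale (SE 0.04, limma adjusted p = 5.96e-06), and its log2 fold change was -0.71 under median-of-ratios scaling. Eif4h, whose protein shares the role of eIF4B, was at 58.8 and 61.2 FPKM in NanoCa and at 57.1 and 60.1 in Mock. Those groups overlapped, and Eif4h did not pass the test (log2 fold change 0.03, -0.04 under quantile normalization), although it was higher past the test under median-of-ratios scaling (0.22). The level of Eif4b per Eif4h was therefore 1.09 and 1.06 in NanoCa and 2.11 and 2.04 in Mock, a ratio within each library that 1 scaling factor per library cannot move, though quantile normalization can.

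Eif4a1 was the most abundant gene of the set in both groups, at 485 and 474 FPKM in NanoCa and 422 and 405 in Mock. It rose by 0.21 on the log2 scale (SE 0.04, limma adjusted p = 0.00448), 0.38 above the median of all genes. Its value is uncertain because 33.3% of the 50-base stretches of its longest transcript also occur in other genes, among them the pseudogene Eif4a-ps4. Eif4a2, a related helicase tied to mRNA repression, had a log2 fold change of 0.09 that did not pass the test. It was higher past the test under median-of-ratios scaling (0.28) and at -0.07 under quantile normalization. Eif4a1 per Eif4a2 was 3.78 and 3.80 in NanoCa and 3.51 and 3.46 in Mock. None of the scaffold genes passed the test as deposited. The log2 fold change was -0.06 for Eif4g1, -0.04 for Eif4g3 and 0.05 for Eif4g2, whose protein lacks the site for eIF4E and acts in cap-independent initiation. Their direction rested on the scaling: Eif4g1 was higher under median-of-ratios scaling (0.13) and lower under quantile normalization (-0.13), past the test both times. Eif4g3 was at 0.14 and 0.08 under the same settings and Eif4g2 at 0.25 and -0.11, each past the test under the first of them. Set against Eif4e, the level of Eif4g1 was 2.25 and 2.34 in NanoCa and 5.44 and 5.37 in Mock.

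The eIF4E-binding repressors moved in opposite directions. Eif4ebp2 (ENSMUSG00000020091), which encodes a binding protein that blocks eIF4E until mTOR phosphorylates it, was at 15.4 and 16.1 FPKM in NanoCa and at 35.3 and 35.5 in Mock. Both NanoCa libraries lay below both Mock libraries, at 44.5% of the Mock mean. Eif4ebp2 had the largest fall of the set, by 1.12 on the log2 scale (SE 0.04, limma adjusted p = 4.7e-06), and its log2 fold change ranged from -1.17 to -0.93 over 12 alternative settings. Eif4ebp1 (ENSMUSG00000031490), a paralog with the same role and a known Atf4 target in mice, was at 12.3 and 13.6 FPKM in NanoCa and at 7.01 and 7.41 in Mock. It was at 179% of the Mock mean, without overlap, and rose by 0.76 on the log2 scale (SE 0.06, limma adjusted p = 0.000108). Eif4ebp3, the least expressed paralog, had only 9 and 10 reads in the NanoCa libraries and 9 and 5 in the Mock libraries and was not tested, and 65.5% of its 50-base stretches occur in another annotated gene.

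Eif4ebp2 was thus 5.03 and 4.79 times the level of Eif4ebp1 in the Mock libraries and 1.26 and 1.18 times in the NanoCa libraries. The summed level of Eif4ebp1, Eif4ebp2 and Eif4ebp3 was 28.2 and 30.2 FPKM in NanoCa and 42.7 and 43.1 in Mock. Per Eif4e, that sum was 1.03 and 1.13 in NanoCa and 3.57 and 3.60 in Mock (1.08 ± 0.0713 against 3.59 ± 0.0185, SD, n = 2 per group), 3.32 times higher in Mock. These are ratios of transcripts, which say nothing of protein or of phosphorylation. Eif4enif1, which encodes a transport protein that takes eIF4E into the nucleus and to repressed mRNAs, was at 12.8 and 12.6 FPKM against 15.5 and 15.6 and fell by 0.27 (limma adjusted p = 0.00171). Under median-of-ratios scaling its log2 fold change was -0.09 and did not pass the test (limma adjusted p = 0.123; 3.96e-06 to 0.123 over 12 settings).

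**Figure D2:**
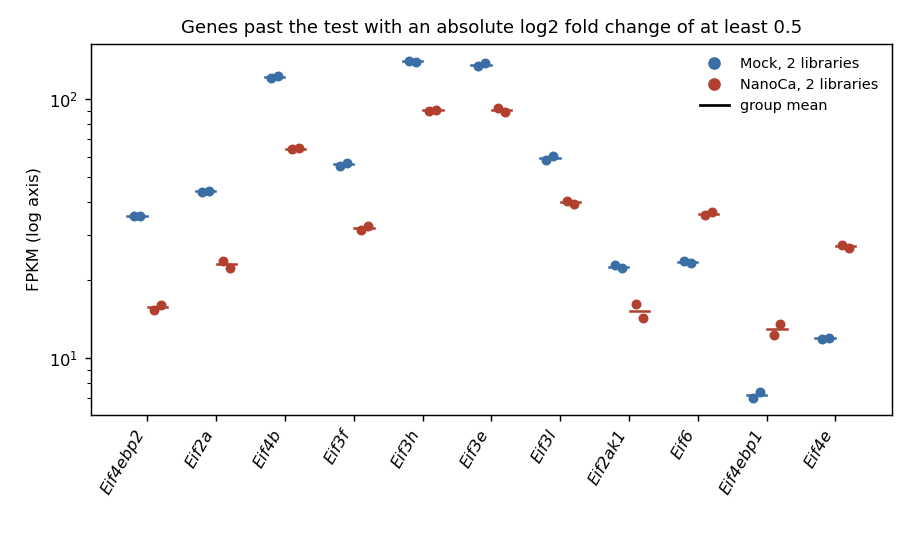
FPKM in each of the 4 libraries for the initiation factor genes that passed the limma test with an absolute log2 fold change of at least 0.5; points are libraries and short lines are group means (n = 2), on a log axis. For each gene the 2 NanoCa libraries lie on one side of the 2 Mock libraries, with Eif4e at 27.4 and 26.7 against 11.9 and 12.0 FPKM and Eif4ebp2 at 15.4 and 16.1 against 35.3 and 35.5 FPKM.

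**Figure D3:**
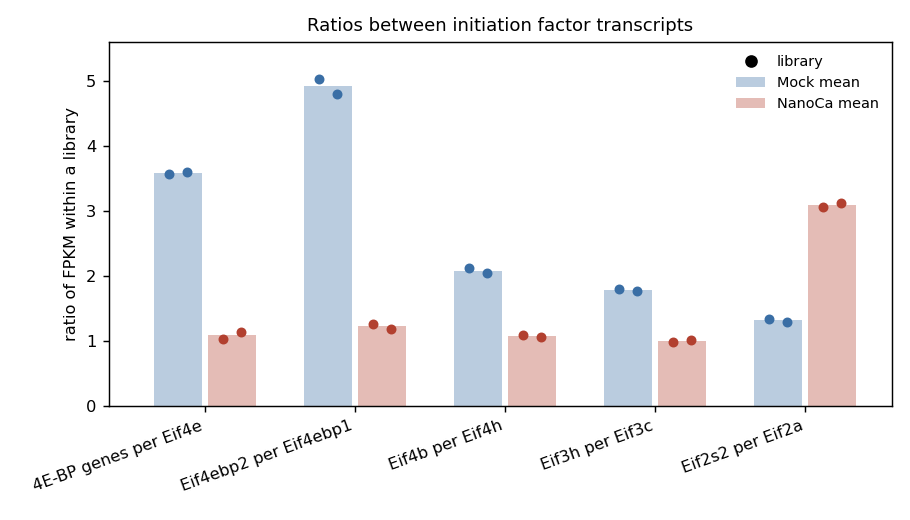
Ratios of levels (FPKM per FPKM) within each library between initiation factor genes; points are the 2 libraries of each group and bars are group means. The sum of the eIF4E-binding protein genes (4E-BP) per Eif4e lies at 1.03 and 1.13 in NanoCa and at 3.57 and 3.60 in Mock. Eif2s2 per Eif2a is higher in NanoCa (3.05 and 3.11 against 1.33 and 1.29). The ratios were chosen with the values known, and which group is higher depends on which gene is divided by the other.

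The scaffold complex eIF3, which had the most tested genes, held 8 of the 18 falls. Of its 14 genes, 13 were tested, of which 8 fell (61.5%, against 49.7% of all tested genes) and 3 rose (23.1% against 21.7%). Their median log2 fold change was -0.37, 0.20 below that of all genes. Under median-of-ratios scaling 7 were lower and 4 higher, and under quantile normalization 8 were lower and 1 higher. Eif3f, which encodes a core subunit with a deubiquitinase-like fold, was at 31.3 and 32.4 FPKM in NanoCa and at 55.3 and 56.6 in Mock, or 56.9% of the Mock mean without overlap. It had the largest fall of the complex, by 0.79 on the log2 scale (SE 0.04, limma adjusted p = 1.39e-05). Eif3h, the partner of Eif3f in the core, was at 90.0 and 91.2 FPKM against 141 and 139 and fell by 0.63 (limma adjusted p = 2.3e-05), with 26.2% of its 50-base stretches shared with pseudogenes.

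Eif3e, a core subunit at one time known as the mouse mammary tumour virus integration site Int6, was at 92.7 and 89.6 FPKM in NanoCa and at 134 and 138 in Mock. It fell by 0.57 on the log2 scale (SE 0.04, limma adjusted p = 4.96e-05). Eif3l was at 40.5 and 39.5 FPKM against 58.2 and 60.3 and fell by 0.56 (limma adjusted p = 5.89e-05), and Eif3k, its partner at the edge of the core, fell by 0.37. Eif3m fell by 0.46, with 15.2% of its 50-base stretches shared with other genes. Eif3i, a subunit of the part that contacts the scanning machinery, was at 36.4 and 40.4 FPKM against 52.6 and 55.6 and fell by 0.49 (limma adjusted p = 0.000566). All 7 of these genes had no overlap between groups and were past the test in each alternative setting run. Eif3a, the largest subunit, was at 87.0 and 81.2 FPKM against 103 and 102 and fell by 0.28 (limma adjusted p = 0.00168), but its log2 fold change was -0.09 and did not pass the test under median-of-ratios scaling (limma adjusted p = 0.130; 1.68e-05 to 0.130 over 12 settings).

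The 3 eIF3 genes that rose did so by less. Eif3c, which pairs with Eif3a in nucleating the complex, was at 92.4 and 90.2 FPKM in NanoCa and at 79.1 and 78.9 in Mock, a log2 fold change of 0.21 (limma adjusted p = 0.00264). Eif3g, an RNA-binding subunit, was at 35.3 and 36.9 FPKM against 30.3 and 32.1, a log2 fold change of 0.20 (limma adjusted p = 0.00827). Eif3b, the scaffold of the scanning part, was at 54.6 and 53.8 FPKM against 47.7 and 49.4, a log2 fold change of 0.16 (limma adjusted p = 0.0116). The groups did not overlap for any of them. Under quantile normalization Eif3c (0.08, limma adjusted p = 0.101) and Eif3b (0.09, limma adjusted p = 0.0928) did not pass, with ranges of 1.3e-05 to 0.101 and 0.000158 to 0.0928 over 12 settings. Eif3b also missed the threshold without NanoCa replicate 1 (0.14, limma adjusted p = 0.0509) or Mock replicate 1 (0.13, limma adjusted p = 0.0698). Eif3d, whose protein can bind the cap of selected mRNAs, did not pass the test at a log2 fold change of 0.07 (0.26 and past it under median-of-ratios scaling), and 42.1% of its 50-base stretches overlap an antisense gene. Eif3j1, a loosely bound subunit, did not pass either, at -0.05 (0.13 under each of the other scalings), and 54.8% of its stretches are shared, among others with Eif3j2, which had 7 or 8 reads in each library.

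The summed level of the eIF3 genes was 751 and 743 FPKM in NanoCa and 934 and 947 in Mock. Within that sum, Eif3e, Eif3f, Eif3h, Eif3k, Eif3l and Eif3m made up 52.4% and 52.6% in NanoCa and 61.3% and 61.2% in Mock. Eif3b, Eif3c, Eif3d and Eif3g made up 29.9% and 29.8% in NanoCa and 21.0% and 21.1% in Mock. Both groupings were made with the values known, so these shares describe how unequal the changes were. Eif3h per Eif3c was 0.973 and 1.01 in NanoCa against 1.79 and 1.77 in Mock, and Eif3f per Eif3b was 0.573 and 0.602 against 1.16 and 1.14. The transcripts of these subunits, which assemble into 1 complex, thus stood at different proportions in the groups.

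**Figure D4:**
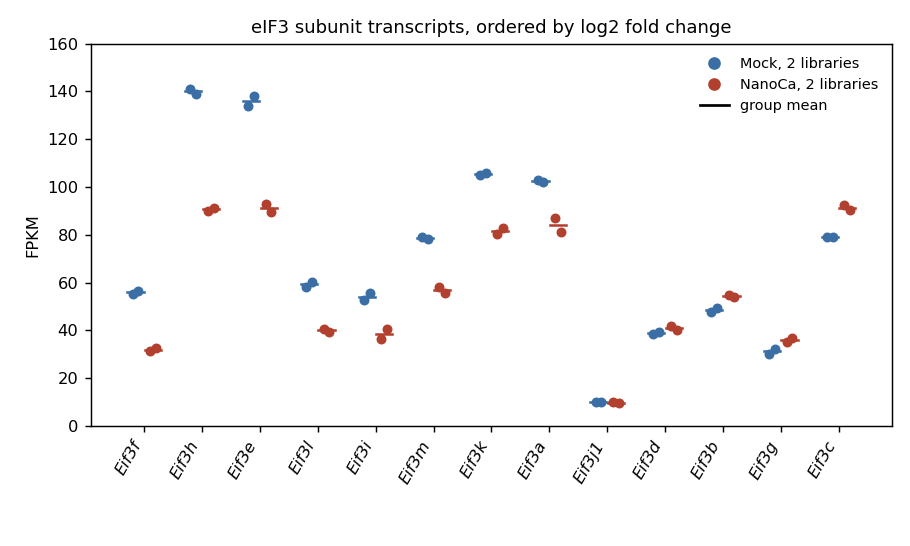
FPKM of the 13 tested eIF3 genes in each of the 4 libraries; points are libraries and lines are group means (n = 2). Eif3e and Eif3h lie between 89.6 and 92.7 FPKM in NanoCa and between 134 and 141 in Mock, while Eif3c lies above its Mock values in both NanoCa libraries.

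Many mRNAs of the translation machinery begin with a run of pyrimidines, the terminal oligopyrimidine tract, through which mTOR and Larp1 govern their translation and stability. The start sites of the genes that fell most are therefore shown, from 40 bases before to 20 bases after the annotated start, where RefSeq (GRCm38.p6) gave a window. Capitals mark runs of C or T that begin with C and have at least 5 bases, the first of them C, within 10 bases of the start; a run is capitalised to its end, also beyond those 10 bases. The stretches are chr7:108934375-108934434 (plus strand) for Eif3f, chr15:79075183-79075242 (plus) for Eif3l, chr15:102073733-102073792 (plus) for Eif4b, chr3:58525781-58525840 (plus) for Eif2a and chr10:61452650-61452709 (minus) for Eif4ebp2.
Eif3f: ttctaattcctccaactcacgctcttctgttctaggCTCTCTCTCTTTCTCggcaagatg
Eif3l: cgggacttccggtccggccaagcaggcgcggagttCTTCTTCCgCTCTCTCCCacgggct
Eif4b: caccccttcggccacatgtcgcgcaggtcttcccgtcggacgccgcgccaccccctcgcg
Eif2a: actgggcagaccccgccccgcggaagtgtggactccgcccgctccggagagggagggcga
Eif4ebp2: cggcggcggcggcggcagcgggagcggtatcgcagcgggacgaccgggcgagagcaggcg
Such a run was found in Eif3f and Eif3l and not in the other stretches shown. The Eif4b stretch does hold cttccc before its start and ccccctc after it, which the limit of 10 bases leaves out. It was found in 5 of 14 genes with a window that fell (35.7%), in 2 of 9 that rose (22.2%), in 14 of all 41 (34.1%) and in 28.8% of all genes with a window. These shares lay close to each other, and a missing match says only that no such run met the limit around the annotated start.

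Of the 4 genes of the set that deliver tRNA, all tested, the alpha and beta subunit genes of eIF2 rose and the genes of the alternative carriers Eif2a and Eif2d fell. Eif2s2, which encodes the beta subunit of eIF2, was at 72.7 and 69.1 FPKM in NanoCa and at 58.3 and 57.1 in Mock, a log2 fold change of 0.29 (SE 0.04, limma adjusted p = 0.00108). Eif2s1, the alpha subunit that carries the phosphorylation site of the stress kinases, was at 32.7 and 29.7 FPKM against 27.7 and 26.8, a log2 fold change of 0.19 (limma adjusted p = 0.0230). That call was lost without NanoCa replicate 1 (0.12, limma adjusted p = 0.0972), without Mock replicate 2 (0.16, limma adjusted p = 0.0721) and with no filter on low values (limma adjusted p = 0.0756), within a range of 0.00142 to 0.0972 over 12 settings. Eif2a, which encodes a separate tRNA-binding protein used in alternative initiation, was at 23.8 and 22.2 FPKM in NanoCa and at 43.8 and 44.3 in Mock. It was at 52.2% of the Mock mean, with no overlap, and fell by 0.91 on the log2 scale (SE 0.05, limma adjusted p = 1.57e-05). Eif2d, a factor of reinitiation and recycling, was at 4.88 and 4.33 FPKM against 6.57 and 6.96 and fell by 0.47 (limma adjusted p = 0.00135). Eif2s2 per Eif2a was 3.05 and 3.11 in NanoCa and 1.33 and 1.29 in Mock, whereas Eif2s2 per Eif2s1 was 2.23 and 2.33 against 2.10 and 2.13.

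The gamma subunit of eIF2 is encoded by Eif2s3x on the X chromosome and Eif2s3y on the Y chromosome, both outside the set. Eif2s3y was at 11.9 and 11.5 FPKM in NanoCa and at 35.1 and 34.6 in Mock and fell (log2 fold change -1.50, limma adjusted p = 2.11e-06), beside the other Y-linked genes given above. Eif2s3x was at 20.1 in both NanoCa libraries and at 24.2 and 24.1 in Mock and fell by 0.25 (limma adjusted p = 0.00158), with a log2 fold change of -0.07 under median-of-ratios scaling.

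The exchange factor eIF2B, which recharges eIF2 with GTP, changed little. Of its 5 genes, 1 fell, none rose and 4 did not pass the test, and their summed level was 50.4 ± 0.619 FPKM in NanoCa and 53.5 ± 0.255 in Mock (SD, n = 2 per group). Eif2b1, the regulatory alpha subunit, was at 10.2 and 8.87 FPKM against 11.4 and 11.1 and fell by 0.22 (limma adjusted p = 0.0303). That call was lost without NanoCa replicate 2 (-0.13, limma adjusted p = 0.114) or Mock replicate 1 (-0.20, limma adjusted p = 0.0778), with no filter on low values (limma adjusted p = 0.102) and under both other scalings (-0.04 and -0.05). Its adjusted p was 0.00430 to 0.610 over 12 settings. The log2 fold changes of the others were 0.20 for Eif2b3, -0.07 for Eif2b2, -0.10 for Eif2b4 and -0.11 for Eif2b5, the catalytic subunit. Eif2b3 was higher past the test under both other scalings (0.37 and 0.41), and the last 3 turned positive there without passing. Of the eIF2 kinases in the set, both fell. Eif2ak1, the heme-regulated kinase, was at 16.2 and 14.3 FPKM in NanoCa and at 22.8 and 22.3 in Mock and fell by 0.53 (limma adjusted p = 0.000500), with 12.1% of its 50-base stretches shared with neighbouring genes. Eif2ak4, the amino acid sensor GCN2, was at 7.37 and 7.07 FPKM against 10.2 and 10.0 and fell by 0.43 (limma adjusted p = 0.000438). The kinases outside the set differed from each other: Eif2ak2, the interferon-inducible double-stranded RNA sensor PKR, rose by 0.93 (69.6 and 66.5 FPKM against 37.4 and 33.1, limma adjusted p = 5.11e-05), and Eif2ak3, the endoplasmic reticulum kinase PERK, fell by 0.82 (6.42 and 5.97 against 11.2 and 12.2, limma adjusted p = 7.45e-05).

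Among the 6 genes of start site selection, 2 rose and 1 fell, and 3 were not called. Under median-of-ratios scaling 5 were higher and none lower, and under quantile normalization 3 were higher and 1 lower. Eif1, which encodes the factor that guards against wrong start codons, was at 236 and 241 FPKM in NanoCa and at 188 and 184 in Mock. Both NanoCa libraries lay above both Mock libraries, and Eif1 rose by 0.36 on the log2 scale (SE 0.04, limma adjusted p = 0.000278), with 31.6% of its 50-base stretches shared with other genes. Its paralog Eif1b was at 28.6 and 31.0 FPKM against 26.5 in both Mock libraries, a log2 fold change of 0.16 (limma adjusted p = 0.0268). The Eif1b call was lost without NanoCa replicate 2 (0.10, limma adjusted p = 0.121), without Mock replicate 1 (limma adjusted p = 0.0673), without Mock replicate 2 (limma adjusted p = 0.0645) and with no filter on low values (limma adjusted p = 0.0717), within 0.00103 to 0.121 over 12 settings. Eif1ax, the X-linked gene of eIF1A, was at 9.82 and 9.15 FPKM against 11.5 in both Mock libraries and fell by 0.25 (limma adjusted p = 0.00552). Under the other scalings its log2 fold change was -0.07 and -0.08 and did not pass the test (limma adjusted p = 0.263 and 0.210, within 0.000116 to 0.263 over 12 settings).

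Eif1a, the autosomal relative of Eif1ax, did not pass the test, at 192 and 184 FPKM in NanoCa and 195 and 192 in Mock. Its log2 fold change was -0.04, and it was past the test as higher under median-of-ratios scaling (0.15) and as lower under quantile normalization (-0.18). Eif5, the GTPase-activating protein of eIF2, had a log2 fold change of 0.04 (-0.08 under quantile normalization), and Eif1ad, a relative of eIF1A that acts in small subunit maturation, had 0.03. Neither passed the test as deposited. Under median-of-ratios scaling both were higher past it (0.23 for Eif5 and 0.20 for Eif1ad), as was Eif1ad under quantile normalization (0.20), and 15.1% of the 50-base stretches of Eif1ad overlap the neighbouring gene Banf1. Eif1 per Eif1a was 1.23 and 1.31 in NanoCa and 0.965 and 0.957 in Mock.

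Of the 4 genes of subunit joining and later steps, Eif6 alone passed the test on the values as deposited. Under median-of-ratios scaling 3 were higher, and under quantile normalization 2 were. Eif6 (ENSMUSG00000027613), which encodes the factor that holds free large ribosomal subunits apart from small ones and takes part in their maturation, was at 35.6 and 36.6 FPKM in NanoCa and at 23.7 and 23.2 in Mock. It was at 154% of the Mock mean with no overlap, and rose by 0.60 on the log2 scale (SE 0.04, limma adjusted p = 4.55e-05; log2 fold change 0.58 to 0.79 over 12 settings). Eif5b, the GTPase that joins the subunits, did not pass at 0.08 but was higher past the test under both other scalings (0.27 and 0.14), and 18.2% of its 50-base stretches overlap Rev1. Eif5a, the hypusine-containing factor of elongation and termination, did not pass at 0.09. It was higher past the test under median-of-ratios scaling (0.29), with the replicate block (0.09) and with limma-voom on recovered reads (0.10), and at -0.04 under quantile normalization. Its relative Eif5a2 did not pass at -0.21 (0.01 under quantile normalization), but it was lower past the test with limma-voom on recovered reads (-0.37, limma adjusted p = 0.0112). Eif5a per Eif5a2 was 163 and 164 in NanoCa and 120.3 and 117 in Mock. Eif4a3, the helicase of the exon junction complex, was at 36.6 and 35.6 FPKM in NanoCa and 34.9 and 37.2 in Mock. Those groups overlapped and its log2 fold change was 0.00 (0.19 and past the test under median-of-ratios scaling), with 24.4% of its 50-base stretches shared with pseudogenes.

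The remaining symbols are pseudogenes or other entries. Eif4a-ps4 was the only one of these tested (log2 fold change 0.22, not past the test, but past it at 0.37 and 0.46 under the other scalings), and 95.7% of its 50-base stretches occur in other genes, Eif4a1 among them, so its reads cannot be assigned with certainty. Of the 15 genes not tested, 9 had reads and none exceeded 0.590 FPKM. Besides Eif4ebp3 and Eif3j2, those above 0.1 FPKM in any library were Eif1-ps1, Eif1-ps2 and Eif3s6-ps1, with at most 3 reads in a library. In all, 13 tested genes had at least 10% of shared stretches and are uncertain for that reason, among them Eif4a2 (12.7%) and Eif4e3 (12.8%).

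Other genes of translation and its control were read beside the set from a list of 47 symbols, of which 44 were tested. In NanoCa 10 of them were higher (22.7%, against 21.7% of all tested genes), 24 lower (54.5% against 49.7%) and 10 did not pass the test. Their median log2 fold change was -0.19, close to that of all genes (-0.17). Under median-of-ratios scaling 15 were higher and 17 lower, and under quantile normalization 12 were higher and 22 lower. The classes within this list are small, and 49.7% of all tested genes fell and 21.7% rose. No class was tested as a set. Of the elongation genes, 6 of 7 fell and 1 rose, and of the poly(A)-binding protein genes and their partners, 4 of 5 fell and none rose. Under median-of-ratios scaling 4 elongation genes were lower and 1 higher, and 3 of the poly(A)-binding class were lower and 1 higher. Under quantile normalization 5 elongation genes were lower and 1 higher, and 4 of the poly(A)-binding class were lower and 1 higher. Both genes of scanning helicases fell. Of the 13 tested genes of cap-binding control, 4 rose (30.8%) and 6 fell (46.2%). The largest fall there was that of Pdcd4, whose protein sequesters eIF4A, at 5.26 and 4.41 FPKM in NanoCa and 14.4 and 14.6 in Mock (log2 fold change -1.41, limma adjusted p = 2.04e-05). In the integrated stress response that phosphorylated eIF2 sets off, Atf4, its transcription factor, was at 159 and 156 FPKM against 52.9 and 51.3 (log2 fold change 1.58, limma adjusted p = 1.32e-06). Ddit3, a transcription factor downstream of Atf4, rose by 2.53 and Ppp1r15a, which encodes the phosphatase subunit that reverses eIF2 phosphorylation, rose by 1.98. Among the 8 tested genes of eIF2 control and this response, 4 rose and 2 fell, the falls being Eif2ak3 and Ppp1r15b.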

How the data were processed

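Messenger RNA libraries were made with a SMARTER kit from phenol-extracted RNA, per the labels' protocols. The authors deposited FPKM values for 55487 genes. Per the submitters' processing notes, reads were referred to GRCm39. The aligner was not given in the sources used here, nor was the counter. Library totals were estimated first, from genes with a single annotated transcript length. Their most common low value of FPKM times length was taken as a single read. FPKM times gene length and library total then gave whole reads (tolerance 0.001 reads) for 23929 of 23929 genes with a value. For 23663 this was at an annotated transcript length, chosen as one that gave whole reads. For 266 it was at a length searched for so that reads came out whole. FPKM scaled to total reads moves with the most abundant transcripts, so other scalings were tried.

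The 11116 genes whose FPKM averaged 1 or more over the 4 libraries entered a limma fit (version 3.58.1, R 4.3.3) of log2(FPKM + 1) with a trend and 2 libraries per group. The replicate 3 columns, scaled means of the others, entered an alternative only. Every tested initiation factor is named. Values per library are given for genes past the threshold of 0.05 with an absolute log2 fold change of at least 0.5, for the largest rise and fall of a complex, and for others chosen after their values were seen. Of the other translation genes, the rule named those past the threshold at 0.8 or more, and Eif2s3x was added after its values were seen. The genes and lists were chosen with earlier results of these data known. Alternatives were pseudocount (0.1), filter (none, mean FPKM of at least 5), median-of-ratios scaling, quantile normalization, each library left out, a replicate block, replicate 3 kept and limma-voom on the recovered reads. Shared 50-base stretches and gene overlaps came from GENCODE vM21 (GRCm38) and promoter windows from RefSeq (GRCm38.p6), matched by identifier or symbol.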

Additional observations from a re-analysis of the deposited data

How the results depend on the processing

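Of the 29 called initiation factors, 21 kept their call and direction in every alternative run, and Eif3c, Eif2s1, Eif1b, Eif3b, Eif2b1, Eif1ax, Eif3a and Eif4enif1 lost the call in at least 1. The count of 11 higher and 18 lower became 25 and 14 under median-of-ratios scaling and 18 and 25 with replicate 3 columns kept, which add no measurement and so shrink the spread. It was 12 and 19 with limma-voom on recovered reads, and 9 to 12 and 17 to 18 when each library was left out in turn (the lone library is then assumed to vary like the others). The median log2 fold change of -0.05 became 0.13 under median-of-ratios scaling and -0.03 with no filter on low values.

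With the replicate block, 13 were higher and 18 lower. Replicate numbers 1 and 2 are shared by both groups in the labels, and the difference between them correlated at r = 0.133 across 11116 genes, but with only 2 pairs and no stated pairing the samples share only a number.

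Signs turned only for genes that did not pass the test as deposited. Quantile normalization gave -0.04 for Eif5a, -0.07 for Eif4a2, -0.11 for Eif4g2, -0.08 for Eif5, -0.04 for Eif4h, 0.08 for Eif4g3, 0.13 for Eif3j1, 0.05 for Eif2b2, 0.11 for Eif2b4, 0.04 for Eif2b5 and 0.01 for Eif5a2. Median-of-ratios scaling gave 0.14 for Eif4g3, 0.15 for Eif1a, 0.13 for Eif3j1, 0.13 for Eif4g1, 0.11 for Eif2b2, 0.10 for Eif4e2, 0.07 for Eif2b4 and 0.07 for Eif2b5. Leaving out each library in turn gave -0.00 to 0.07 for Eif4h, -0.04 to 0.09 for Eif1ad, -0.04 to 0.05 for Eif4a3 and -0.15 to 0.00 for Eif2b2. Beyond the scalings' own construction, the cause was not tested. Depth limits only the genes with few reads: 1 read in 1 kilobase was worth 0.0321 to 0.0439 FPKM.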
